A study of Mus musculus with 60 samples.

Results

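Cpne8, Ccdc85a, Prkca, Kif26b, Lpar1, Hpgd, Enc1, Fbn2, Tnfrsf21 and Kitl are 10 genes whose nascent RNA fell after acute loss of the cohesin subunit RAD21 in mouse neuronal progenitor cells (NPCs). They were picked by name from earlier fold changes in these same NPC libraries, and are 10 of the 27665 transcripts that were counted, with 1 transcript for each of these genes. Their decrease after RAD21 loss in NPCs is therefore the reason for their choice, and it is described here without a test. They are not the 10 largest decreases. Among 16148 transcripts with enough reads at 4 h, Hpgd, Ccdc85a and Cpne8 held ranks 1, 2 and 3 by log2 fold change, Kif26b, Prkca, Tnfrsf21 and Lpar1 held ranks 57, 86, 136 and 196, and Enc1, Fbn2 and Kitl held ranks 281, 491 and 580.

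Nascent RNA was profiled by EU-seq, in which cells take up the uridine analog 5-EU (0.5 mM, 20 min) and the labeled RNA is captured and sequenced. The NPCs were differentiated from 1 RAD21-AID mESC line, in which an auxin-inducible degron on RAD21 lets indole-3-acetic acid (IAA, 500 µM) trigger degradation of the protein. NPCs were profiled as controls, at 3 times of IAA exposure (1, 2 and 4 h) and following 1 h with A-485 (10 µM), with 2 libraries in every group. A-485 blocks the catalytic activity of the paralogous acetyltransferases CBP and p300. For RAD21-AID mESCs an initial experiment compared 2 control with 2 IAA libraries (4 h), and an additional experiment compared 12 with 12. Degron lines of the insulator protein CTCF, all mESC, were CTCF-AID (4 control libraries against 4 given IAA for 6 h, with 2 stranded per group), CTCF YF-AA, in which a tyrosine and a phenylalanine were replaced by alanine (2 controls, with 2 libraries each for 2 and 4 h of dTAG-13), and a line with bTAG-ΔN-CTCF and dTAG-CTCF-ΔC (2 controls, with 2 libraries each for 2 h of 100 nM AGB1, dTAG-13 and their combination). Every group of the RAD21-AID line, controls included, carries the degron-tagged RAD21. The degron acts on protein, so Rad21 RNA cannot check the labels: in NPCs it was 184 to 196 CPM (counts scaled to library size) in controls and 206 to 210 CPM after 4 h of IAA. For the initial mESC libraries, titles name IAA but the treatment text speaks of triptolide, and the sources give the dTAG-13 dose of the CTCF lines as either 100 or 200 nM.

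Cohesin is a ring-shaped complex that extrudes chromatin loops and holds distant stretches of DNA together, RAD21 is the subunit that closes the ring, and CTCF bound to DNA halts the extrusion. Enhancers, many of them marked by CBP/p300, can lie far from the promoters they act on. Nascent RNA reports transcription during the labeling pulse, so that it responds to such losses before the pool of mature RNA does.

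The sequences directly upstream of the 3 genes with the largest decrease are shown so that their start sites can be compared. They come from RefSeq (GRCm38.p6), run 5′ to 3′ on the gene's strand and stop before the RefSeq start or the start of the counted transcript, whichever lies further upstream. Capitals mark a match to 1 of 4 motifs searched on both strands: letters of the CTCF core (CCACNAG), the TATA box (TATAAA), an E-box (CACGTG) and an AP-1 site (TGANTCA).
Cpne8, chr15:90679433-90679638, minus strand: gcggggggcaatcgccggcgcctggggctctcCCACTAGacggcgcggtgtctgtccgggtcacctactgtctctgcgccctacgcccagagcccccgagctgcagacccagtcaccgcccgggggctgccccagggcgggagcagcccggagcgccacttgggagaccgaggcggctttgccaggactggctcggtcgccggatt
Ccdc85a, chr11:28584325-28584574, minus strand: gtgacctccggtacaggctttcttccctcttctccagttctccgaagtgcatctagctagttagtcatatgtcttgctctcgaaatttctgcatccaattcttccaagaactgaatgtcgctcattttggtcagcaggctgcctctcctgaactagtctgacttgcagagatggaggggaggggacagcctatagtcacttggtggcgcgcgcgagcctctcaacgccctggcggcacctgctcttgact
Hpgd, chr8:56294302-56294551, plus strand: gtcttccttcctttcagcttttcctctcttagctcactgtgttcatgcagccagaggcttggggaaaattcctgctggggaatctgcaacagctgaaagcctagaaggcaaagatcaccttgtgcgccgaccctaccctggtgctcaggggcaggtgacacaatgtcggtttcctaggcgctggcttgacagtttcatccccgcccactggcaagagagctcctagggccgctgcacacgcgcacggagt

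Promoters of 8 of the 10 genes, all but Enc1 and Fbn2, were searched. Within 250 bases upstream of the RefSeq start, 1 of the 8 (Cpne8) held the CTCF letters and 1 (Kitl) the TATA box, and the E-box and AP-1 letters were found in 0 of 8. The Kitl window runs 191 bases past the start of the counted transcript, and its TATA match lies in that part, not upstream of the counted start. The shares among all 32851 promoters were 12.7% for the CTCF letters, 12.4% for the TATA box, 6.02% for the E-box and 6.75% for the AP-1 letters. GC content of the 8 windows ranged from 50.4% (Tnfrsf21) to 76.8% (Prkca), against a median of 52.4% over all promoters. The windows held 9 (Hpgd) to 39 (Prkca) CpG dinucleotides, against a median of 6.

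Total counts per library were 10755624 to 21351965 over whole gene bodies in NPCs and 4027449 to 21898781 in mESCs, and 13863983 to 17730066 in the NPC libraries whose counting stopped 90 kb into a gene. In NPC controls, 10 neural progenitor markers summed to 1340 to 1390 CPM, against 428 to 493 CPM in the 12 additional mESC controls. Hes5 was the only one of the 10 with a mean under 1 CPM in NPC controls. The 8 pluripotency markers summed to 21.2 to 28.3 CPM in NPC controls and 4700 to 4950 CPM in mESC controls, with Pou5f1, Dppa5a and Fgf4 under 1 CPM in NPCs. After 4 h of IAA in NPCs, the 5 neuron markers summed to 241 to 254 CPM against 298 to 302 CPM in controls, and the 4 astrocyte markers to 42.9 to 46.8 against 60.8 to 63.5 CPM; the part of these shifts in the results was not tested. In bulk libraries, fewer cells of a type and less RNA per cell cannot be told apart.

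The 10 genes were long. Their gene bodies had a median length of 155.2 kb, against 24 kb over the 16021 tested transcripts with a position, and 6 of 10 exceeded 90 kb, against 16.5% of tested transcripts. Kif26b (410.1 kb, chromosome 1, 178529125 to 178939200) and Prkca (410.5 kb, chromosome 11, 107933387 to 108343928) were the longest. Enc1 (11.9 kb, chromosome 13, 97241105 to 97253034) and Hpgd (26.5 kb, chromosome 8, 56294585 to 56321043) were the shortest. Exons made up 1.75% (Cpne8) to 6.66% (Kitl) of the body in 9 genes and 39.7% in Enc1. Prkca overlapped a counted transcript of another gene, Apoh on the opposite strand, over 0.14% of its body, and the other 9 overlapped none.

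Levels compared between genes are reads per kb of gene body, scaled to library size (RPKM). In the 2 NPC controls Enc1 was the highest, at 28.9 and 29.3 RPKM. Fbn2 (2.92 to 2.99) and Tnfrsf21 (2.84 to 2.94) came next and their ranges overlapped. Lpar1 (2.39 to 2.45), Cpne8 (1.66 to 1.76), Kitl (1.48 to 1.51) and Prkca (0.968 in both) followed without overlap. Ccdc85a (0.324 to 0.325), Kif26b (0.298 to 0.299) and Hpgd (0.128 to 0.164) were the lowest. Hpgd rested on few reads, with 80 and 71 counts in the controls.

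The decrease in NPCs became deeper with time of RAD21 loss for all 10 genes between 2 and 4 h. The median log2 fold change of the 10 was -0.30 at 1 h, -0.97 at 2 h and -1.72 at 4 h, while the medians over all tested transcripts were -0.03, -0.04 and -0.02. With a call defined as an adjusted p under 0.05 and at least 2-fold, 1 of 10 was called lower at 1 h (0.189% of all tested transcripts were), 4 of 10 at 2 h (1.16%) and 8 of 10 at 4 h (2.75%). By edgeR, 0 of the 10 were called higher, as were 0.397%, 0.331% and 0.817% of all tested transcripts at 1, 2 and 4 h. Groups did not overlap for 9 genes at 2 h and 10 at 4 h, all lower, as did 31.8% and 34.6% of all tested transcripts (25.5% and 33.2% in the higher direction). These counts follow from how the genes were chosen. Fbn2 and Kitl, the 2 that were not called at 4 h, fell short of 2-fold.

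Among signaling genes at the cell surface, Kitl, which encodes the ligand of the receptor KIT, had 126 and 128 CPM in controls, 84.0 and 78.3 CPM at 2 h and 70.8 and 71.2 CPM at 4 h. Lpar1, a G protein-coupled receptor for lysophosphatidic acid (LPA), had 290 and 283 CPM in controls, 121 and 119 CPM at 2 h and 104 and 113 CPM at 4 h. Tnfrsf21, a death-domain receptor of the TNF receptor superfamily, had 214 and 206 CPM in controls, 101 and 123 CPM at 2 h and 67.4 and 71.6 CPM at 4 h. In all 3 genes every treated library was below both controls, and Lpar1 had reached 89.5% of its 4 h log2 decrease by 2 h, against 77.1% for Kitl and 58.0% for Tnfrsf21. The log2 fold changes at 4 h were -0.86 ± 0.045 (SE, n = 2 per group) for Kitl, -1.43 ± 0.042 for Lpar1 and -1.62 ± 0.044 for Tnfrsf21.

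Among signaling and metabolic enzymes and lipid-binding proteins, Prkca, the calcium- and diacylglycerol-dependent protein kinase C alpha, had 397 CPM in both controls, 56.8% and 49.2% of the control mean at 2 h and 112 and 118 CPM at 4 h. Cpne8, a copine that binds phospholipids in response to calcium, had 338 and 319 CPM in controls, 64.9 and 68.8 CPM at 2 h and 25.5 and 24.2 CPM at 4 h. Hpgd, the dehydrogenase that inactivates prostaglandins, went from 80 and 71 counts in controls (4.33 and 3.40 CPM) to 15 and 9 at 2 h and 5 and 3 at 4 h (0.265 and 0.171 CPM). Cpne8 and Hpgd were left at 7.57% and 5.64% of the control mean and Prkca at 28.9%, with no overlap between groups. The log2 fold changes at 4 h were -1.82 ± 0.039 for Prkca, -3.75 ± 0.051 for Cpne8 and -4.12 ± 0.39 for Hpgd, whose error was the largest of the 10.

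Among genes of matrix and cytoskeleton, Fbn2, a fibrillin of extracellular microfibrils, had 604 and 590 CPM in controls, 400 and 394 CPM at 2 h and 309 and 322 CPM at 4 h. Enc1, a BTB-kelch protein that binds actin in neural cells, had 349 and 345 CPM in controls, 185 and 168 CPM at 2 h and 157 and 141 CPM at 4 h. Ccdc85a, a coiled-coil protein placed here without a functional class, had 64.5 and 64.4 CPM in controls, 15.2 and 15.9 CPM at 2 h and 4.71 and 4.15 CPM at 4 h. These 3 genes were left at 52.9%, 43.0% and 6.88% of the control mean at 4 h, with log2 fold changes of -0.95 ± 0.037, -1.24 ± 0.042 and -3.88 ± 0.092.

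Kif26b, an atypical kinesin of the Wnt5a-Ror pathway, was unlike the other 9. It had 122 CPM in both controls and 123 and 110 CPM at 2 h, so that the groups overlapped, and 30.6 and 28.6 CPM at 4 h, or 24.2% of the control mean. Its log2 fold change was -0.10 ± 0.067 at 2 h and -2.07 ± 0.054 at 4 h, so 4.64% of the 4 h decrease was present at 2 h, against 51.6% (Prkca) to 89.5% (Lpar1) in the other 9. Kif26b and Prkca were also the longest genes, at 410.1 and 410.5 kb. Because of elongation rates, the paper's methods limit how far into a gene 2 h data are counted, but the 2 h column names show no limit. These shares are therefore not directly comparable between long and short genes, and the part of length was not tested.

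At 1 h, reads were counted over at most the first 90 kb, which holds 21.9% of the body of Kif26b and Prkca, 44.6% to 46.9% of Fbn2, Ccdc85a and Cpne8, 76.0% of Lpar1 and all of the other 4. Controls were counted in the same way. Cpne8 had a mean of 232 CPM in controls (3543 to 3850 counts) and 103 and 111 CPM at 1 h, which left 46.1% of the control mean. Ccdc85a was left at 65.1% (45.2 and 44.4 against 30.6 and 27.8 CPM) and Hpgd at 57.1% (80 and 71 against 40 and 36 counts). Cpne8, Hpgd and Ccdc85a were thus the 3 lowest at 1 h, over the stretch counted. Lpar1 was at 76.0%, Prkca at 82.6%, Kitl at 83.2%, Enc1 at 88.6%, Fbn2 at 89.0% and Tnfrsf21 at 94.0%. Kif26b moved the other way: its 2 libraries at 1 h had 59.4 and 62.1 CPM, against 40.5 and 38.5 CPM in controls, a log2 fold change of 0.60 ± 0.066 (154% of the control mean). In all 10 genes the 1 h and control libraries did not overlap, 9 of them lower, while 28.1% of all tested transcripts were lower without overlap and 28.3% higher. The 1 h values cannot be set directly beside the 2 and 4 h values for the 6 genes over 90 kb, since these count different stretches of the gene.

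The A-485 libraries share the 2 NPC controls with the IAA comparisons, and their results were known when the genes were chosen. These values, and the adjusted p values given with them, are therefore not independent of the choice. For Kitl, Enc1, Tnfrsf21 and Fbn2, where the A-485 response may have been part of the choice, the values are given without a test. After 1 h of A-485, all 10 genes met the rule for a lower call (edgeR, Benjamini-Hochberg), against 20.2% of the 16009 tested transcripts (0.831% were called higher). For Kitl, Enc1, Tnfrsf21 and Fbn2 this part of the count may follow from the choice and is no test. The median log2 fold change of the 10 genes was -3.60, against -0.11 over all tested transcripts. Their ranks from the lowest lay within the first 0.5% (Cpne8) to 11.4% (Prkca) of transcripts.

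Cpne8 had 10.5 and 12 CPM after A-485 against a mean of 232 CPM in controls (log2 fold change -4.49 ± 0.082, edgeR adjusted p = 1.11e-15). Kif26b, higher at 1 h of IAA, had 2.37 and 2.54 CPM against 40.5 and 38.5 CPM (-4.12 ± 0.14, adjusted p = 3.38e-13). Fbn2 had 19.5 and 26.5 CPM against 343 and 347 CPM (-4.03 ± 0.098). These 3 genes were the lowest and were left at 4.82%, 6.23% and 6.66% of control. Lpar1 had 19.9 and 21.5 CPM against 286 and 274 CPM (-3.88 ± 0.074, adjusted p = 1.55e-15). Ccdc85a had 3.92 and 3.96 CPM against 45.2 and 44.4 CPM (-3.63 ± 0.12, adjusted p = 3.13e-13). Hpgd had 7 counts in each library against 80 and 71 (-3.56 ± 0.35, adjusted p = 3.53e-07). These 3 were left at 7.40% to 9.04% of control, and Enc1, at 39.2 and 42.5 CPM against 432 and 425 CPM, at 9.53%.

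The change was smallest for Kitl, Tnfrsf21 and Prkca. Kitl had 27.6 and 28.6 CPM against 156 and 158 CPM (log2 fold change -2.60 ± 0.069), Tnfrsf21 had 54.4 and 67.5 CPM against 265 and 255 CPM (-2.21 ± 0.083) and Prkca had 42.9 and 36.9 CPM against 122 and 124 CPM (-1.75 ± 0.075, edgeR adjusted p = 1.49e-11). No A-485 library of any of the 10 genes overlapped a control; 41.4% of all tested transcripts were lower without overlap and 42.8% higher.

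**Figure D1:**
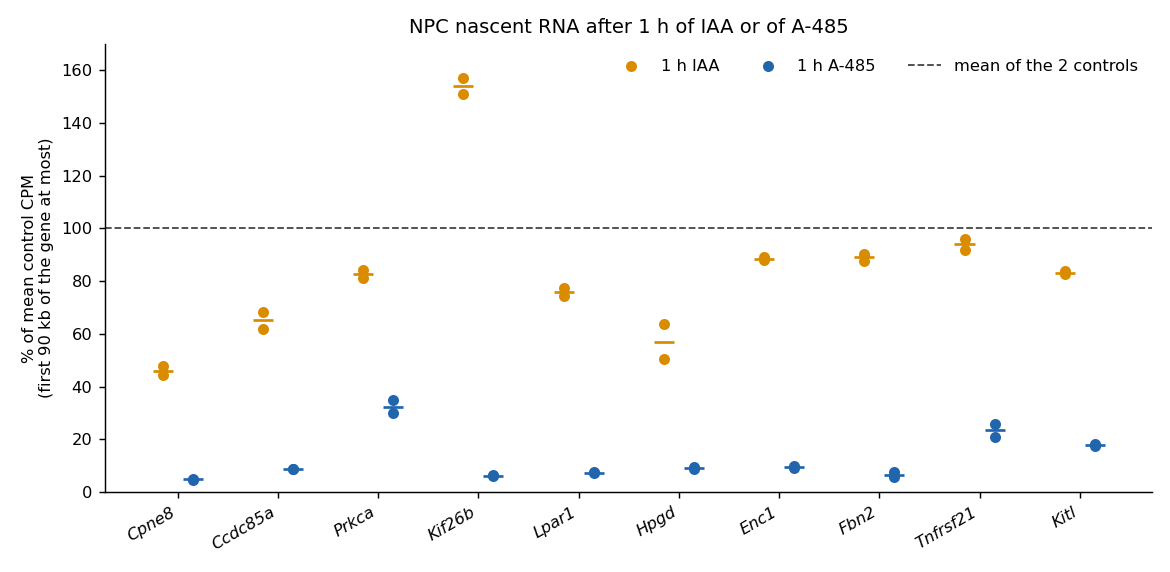
Reads of each library after 1 h of IAA (orange) or 1 h of A-485 (blue) as a percent of the mean of the 2 NPC controls (y axis, dashed line at 100%), counted no further than 90 kb into each gene; short bars are means. Kif26b stood at 154% after IAA and 6.23% after A-485, and all other points lay under 100%.

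Set side by side, 1 h of A-485 and 4 h of IAA gave log2 fold changes of -1.75 and -1.82 for Prkca, -3.63 and -3.88 for Ccdc85a, -3.56 and -4.12 for Hpgd, -2.21 and -1.62 for Tnfrsf21 and -4.49 and -3.75 for Cpne8. For Fbn2 they were -4.03 and -0.95, for Lpar1 -3.88 and -1.43, for Enc1 -3.51 and -1.24, for Kif26b -4.12 and -2.07 and for Kitl -2.60 and -0.86. The first 5 genes had differences between -0.75 (Cpne8) and 0.55 (Hpgd) and the latter 5 were lower with A-485, with differences of -1.74 (Kitl) to -3.08 (Fbn2). The treatments differ in time and in the stretch counted and share controls, and no test of their difference was made.

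**Figure D2:**
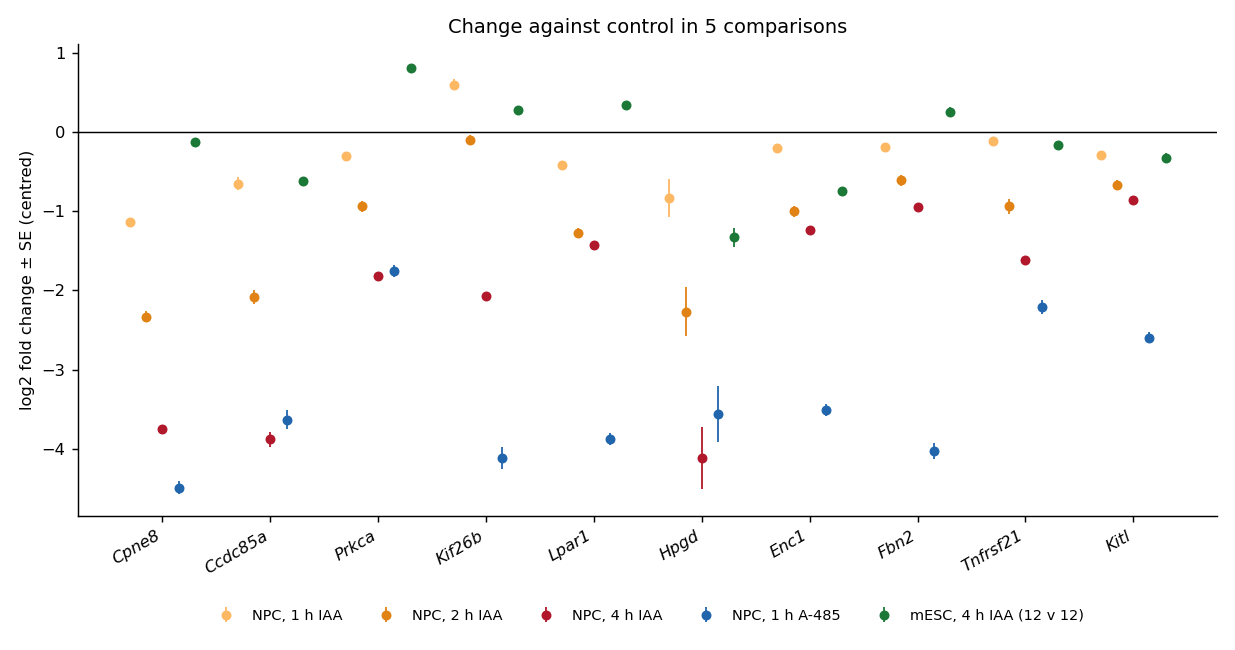
Centered log2 fold change against control (y axis, bars are SE) for the 10 genes in NPCs after 1, 2 and 4 h of IAA and 1 h of A-485 and in mESCs after 4 h of IAA (12 against 12 libraries); NPC comparisons share 2 controls. Prkca, Kif26b, Lpar1 and Fbn2 lay above 0 in mESCs (0.81, 0.28, 0.34 and 0.25) and below 0 at 4 h in NPCs.

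The genes were picked from fold changes in NPCs, with earlier results of these data known. The mESC libraries ask whether the same genes respond to 4 h of RAD21 loss in the undifferentiated cells. In the additional experiment all 10 genes differed between 12 control and 12 IAA libraries at an adjusted p under 0.05, but in both directions: 6 were lower (27.4% of 15732 tested transcripts were) and 4 higher (31% were). Hpgd alone was called, with at least 2-fold (0.585% of transcripts were called lower and 0.261% higher). The median log2 fold change of the 10 was -0.15, against 0.03 over all tested transcripts. Nothing in the labels says that the libraries are from separate cultures, so these p values measure the spread between libraries, which may be technical.

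Hpgd had 2.43, 3.20 and 4.93 CPM in mESC controls (lowest, median and highest of 12) and 0.830, 1.21 and 2.15 CPM after IAA, from 9 to 75 counts per library, with a log2 fold change of -1.33 ± 0.12 (edgeR adjusted p = 1.02e-13). Enc1 had 119, 128 and 138 CPM in controls and 67.2, 74.8 and 80.8 CPM after IAA (-0.74 ± 0.024, adjusted p = 1.90e-32). Ccdc85a had 25.8, 29.1 and 31.9 CPM in controls and 16.8, 18.5 and 20.3 CPM after IAA (-0.62 ± 0.038, adjusted p = 2.77e-20). In these 3 genes, every IAA library was below every control. Tnfrsf21 had 83.9, 87.8 and 95.9 CPM in controls and 74.0, 78.0 and 79.7 CPM after IAA, also without overlap (-0.17 ± 0.022, adjusted p = 1.03e-09). Kitl had 7.11, 8.70 and 10.7 CPM in controls and 5.88, 6.85 and 8.01 CPM after IAA (-0.33 ± 0.062, adjusted p = 4.63e-06). Cpne8 had 15.6, 16.6 and 20.7 CPM in controls and 13.3, 15.6 and 17.3 CPM after IAA (-0.13 ± 0.047, adjusted p = 0.0112). The last 2 genes overlapped between groups, and Cpne8, left at 7.57% in NPCs, stood at 90.4% of control in mESCs.

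Prkca rose in mESCs, from 29.5, 34.3 and 38.7 CPM in controls to 55.7, 58.5 and 62.7 CPM after IAA (log2 fold change 0.81 ± 0.031, edgeR adjusted p = 1.07e-28), and was higher in all 12 same-numbered pairs. Lpar1 had 157, 171 and 197 CPM in controls and 199, 218 and 232 CPM after IAA (0.34 ± 0.026, adjusted p = 5.72e-16), higher in 12 of 12 pairs. Both genes were higher without overlap, as were 4.51% of all tested transcripts, and 8.24% were lower without overlap. Their 12 of 12 pairs follow from the lack of overlap. Deviations of same-numbered libraries correlated at 0.31 for replicate 1 and at -0.0214 to 0.118 for the others, so counts of pairs add little. Kif26b had 8.96, 11.6 and 13.3 CPM in controls and 12.4, 14.1 and 16 CPM after IAA (0.28 ± 0.054, adjusted p = 2.94e-05). Fbn2 had 6.93, 8.46 and 10.3 CPM in controls and 8.70, 10.1 and 12.2 CPM after IAA (0.25 ± 0.064, adjusted p = 0.000904). Kif26b was higher in 10 of 12 pairs and Fbn2 in 9 of 12, and the groups overlapped for both. Whether these responses differ from those in NPCs was not tested, since the NPC values chose the genes.

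In the initial experiment, with 2 libraries per group, Hpgd was again the 1 gene called (9.64 and 7.78 CPM in controls, 3.87 and 3.61 CPM after IAA, log2 fold change -1.20 ± 0.23, edgeR adjusted p = 8.88e-06), where 0.224% of 15177 tested transcripts were called lower and 0.237% higher. At an adjusted p under 0.05, 4 genes were lower (Hpgd, Ccdc85a, Enc1 and Kitl; 5.23% of transcripts were) and 1 higher (Lpar1; 3.4% were). Ccdc85a had 27.9 and 27.7 CPM in controls and 18.5 and 18.1 CPM after IAA (-0.59 ± 0.13, adjusted p = 9.33e-05). Prkca had 82.9 and 81.8 CPM in controls and 96.9 and 92.9 CPM after IAA (0.22 ± 0.078, adjusted p = 0.0642). The control level of Prkca in this experiment was above all 12 controls of the additional one.

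Most of the 10 genes were higher in control NPCs than in control mESCs of the same line. Against the 12 additional mESC controls, 8 were called higher (26.8% of 17290 tested transcripts were) and 0 lower (18.7% were). Cell type and the batch named in the labels cannot be told apart here, and genes had to be measured in NPCs to be chosen. Fbn2 had 604 and 590 CPM in NPCs against 6.93 to 10.3 CPM in mESCs (log2 difference 6.18 ± 0.043, edgeR adjusted p = 1.74e-61). Cpne8 (4.32 ± 0.042), Kitl (3.92 ± 0.053), Prkca (3.61 ± 0.036) and Kif26b (3.47 ± 0.055) followed. Against the initial mESC controls the log2 differences were 4.34 for Fbn2, 4.90 for Cpne8, 2.82 for Kitl, 2.20 for Prkca and 2.63 for Kif26b, so the size depended on the mESC experiment. Enc1 (1.51 ± 0.033), Tnfrsf21 (1.31 ± 0.034) and Ccdc85a (1.22 ± 0.051) were between 2.33- and 2.84-fold higher, and against the initial controls the log2 differences were 2.53, 1.11 and 1.15. Lpar1 was higher by 0.80 ± 0.038 (adjusted p = 1.46e-22), and against the initial mESC controls, at 262 and 288 CPM, by -0.01 (adjusted p = 0.955). Hpgd had 4.33 and 3.40 CPM in NPCs against 2.43 to 4.93 CPM in mESCs, a log2 difference of 0.28 ± 0.17 (adjusted p = 0.278), and against the initial mESC controls it was called lower in NPCs (-1.24, adjusted p = 4.53e-07). Over all 22 control mESC libraries of the 4 lines, Lpar1 ranged from 107 to 343 CPM and Hpgd from 2.43 to 11.1 CPM, which covers their NPC levels. The highest of these mESC libraries reached only 20.7 CPM for Cpne8, 29.3 CPM for Fbn2 and 17.3 CPM for Kitl.

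Loss of CTCF or of a CTCF variant in mESCs was tested in 4 comparisons. By edgeR without a replicate block, 0 of 10 were called in each of them. With the block, Ccdc85a was called lower in CTCF-AID, where 191 of 15611 tested transcripts were called lower and 320 higher. By adjusted p under 0.05 with the block, 5 of the 10 passed there (3 lower and 2 higher). The share of all transcripts that passed this rule with the block is not given here, so these 5 have no matching background. Without the block, 0.89% of 15611 tested transcripts were called lower and 0.564% higher in CTCF-AID. The shares were 0.664% and 0.15% in CTCF YF-AA at 2 h, 0.791% and 0.238% at 4 h, and 0.633% and 0.175% in the ΔN/ΔC line. At an adjusted p under 0.05 alone, 1 gene was lower and 1 higher in CTCF-AID without the block (2.01% and 1.57% of transcripts were), 1 lower in CTCF YF-AA at 2 h (2.7% lower, 1.24% higher), 2 lower and 1 higher at 4 h (3.4% and 1.6%), and 1 lower and 1 higher in the ΔN/ΔC line (4.55% and 2.04%). Hpgd had too few reads to be tested in CTCF YF-AA at 2 h.

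Tnfrsf21 was lower in CTCF YF-AA and in the ΔN/ΔC line. In CTCF YF-AA it had 112 and 119 CPM in controls, 74.6 and 75.8 CPM after 2 h of dTAG-13 (log2 fold change -0.61 ± 0.088, edgeR adjusted p = 2.92e-10) and 83.3 and 81.1 CPM after 4 h (-0.49 ± 0.077, adjusted p = 2.67e-06). In the ΔN/ΔC line it had 67.7 and 64.2 CPM in controls and 50.1 and 45.0 CPM after AGB1 with dTAG-13 (-0.47 ± 0.080, adjusted p = 7.94e-05), while AGB1 alone gave 55.5 and 53.6 CPM and dTAG-13 alone 63.2 and 64.8 CPM, which were not tested. In CTCF-AID it had 73.6, 84.2, 83.9 and 123 CPM in controls and 52.6, 61.9, 61.7 and 81.2 CPM after IAA (-0.48 ± 0.14, adjusted p = 0.108). The treated libraries were below the controls in those lines, and in CTCF-AID the groups overlapped although each treated library was below its same-numbered control.

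Same-numbered CTCF-AID libraries deviated together, and with the replicate number as a block Tnfrsf21 passed (-0.48 ± 0.050, edgeR adjusted p = 2.25e-05). So did Ccdc85a, which became the 1 gene called (-1.24 ± 0.19, adjusted p = 0.000566; without the block -1.21 ± 0.54, adjusted p = 0.292), and Prkca (0.48 ± 0.095, adjusted p = 0.0041). The block also moved the calls over all transcripts from 139 lower and 88 higher to 191 and 320. Ccdc85a had 6.52, 3.91, 6.87 and 19.8 CPM in the 4 controls and 1.88, 1.91, 1.64 and 10.9 CPM after IAA, so that 1 pair of stranded libraries stood above the rest in both groups. Kif26b and Enc1 passed an adjusted p of 0.05 with and without the block. Kif26b had 11.1, 9.31, 8.96 and 7.12 CPM in controls and 19.7, 20.7, 17.2 and 13.0 CPM after IAA (0.97 ± 0.15, adjusted p = 0.0122), and every treated library was above every control. Enc1 had 64.9, 67.8, 67.7 and 94.2 CPM in controls and 42.7, 44.8, 46.3 and 49.5 CPM after IAA (-0.66 ± 0.11, adjusted p = 0.0119), with every treated library below every control. Without any 1 of the 4 unstranded libraries, the adjusted p of Kif26b was 0.0535 to 0.0608 and that of Enc1 0.0525 to 0.0643.

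In CTCF YF-AA at 4 h, Kif26b had 22.6 and 19.7 CPM against 14.3 and 10.1 CPM in controls (log2 fold change 0.87 ± 0.19, edgeR adjusted p = 0.00177) and Enc1 had 92.6 and 102 CPM against 120 and 123 CPM (-0.31 ± 0.074, adjusted p = 0.00278). At 2 h the values were 0.41 ± 0.23 (adjusted p = 0.475) and -0.12 ± 0.080 (adjusted p = 0.579). Prkca had 72.4 and 75.6 CPM after AGB1 with dTAG-13 in the ΔN/ΔC line against 62.2 and 61.5 CPM in controls (0.25 ± 0.073, adjusted p = 0.0244). In mESCs, some directions seen after RAD21 loss in the additional experiment recurred in part of the CTCF comparisons. Enc1 was lower and Kif26b higher in CTCF-AID and in CTCF YF-AA at 4 h. Tnfrsf21 was lower in CTCF YF-AA and the ΔN/ΔC line, and Prkca higher in the ΔN/ΔC line. In CTCF-AID, Tnfrsf21, Prkca and Ccdc85a (lower) passed only with the block. By DESeq2, Kif26b and Enc1 in CTCF YF-AA at 4 h and Prkca in the ΔN/ΔC line did not pass. According to the paper, the CTCF YF-AA mutations abolish cohesin loops anchored by CTCF, and ΔN lacks the N-terminal region. Depleting these variants is therefore not the same as losing intact CTCF, and a shared cause was not tested. Directions are given only for comparisons where the gene passed an adjusted p of 0.05. Cpne8, lowest at 1 h in NPCs, had no change past this threshold in any CTCF comparison, at 0.848 to 12.6 CPM per library.

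Related genes were listed by role, with earlier results known. Of 66 tested transcripts of relatives and partners of the 10 genes, IAA for 4 h gave 7 calls in the lower and 1 in the higher direction (2.75% and 0.817% of all tested transcripts were called), with a median log2 fold change of -0.10. After A-485, 24 of 65 were called lower and 0 higher (20.2% and 0.831% of all), with a median of -0.58. In mESCs, 3 of 62 were called lower and 0 higher after RAD21 loss (0.585% and 0.261% of all). The receptor Kit, partner of Kitl, fell from 14.4 ± 0.845 CPM (SD, n = 2) to 4.25 ± 0.0563 CPM at 4 h (log2 fold change -1.78 ± 0.14, edgeR adjusted p = 9.86e-12) and had a log2 fold change of -1.42 ± 0.13 after A-485. Ror1, a receptor for Wnt5a, fell by 1.26 ± 0.050 on the log2 scale at 4 h (adjusted p = 5.20e-19), while the other 3 genes of the Kif26b list were not called there. Of these, Ror2 (-0.48 ± 0.037, edgeR adjusted p = 1.29e-11) and Kif26a (-0.39 ± 0.080, adjusted p = 0.000503) were lower by under 2-fold. Wnt5a did not pass (adjusted p = 0.076). Of 8 tested transcripts of LPA signaling, Lpar4 fell by 1.02 ± 0.055 and Plpp3, a phosphatase that degrades LPA, by 1.29 ± 0.048 at 4 h. Among 10 tested prostaglandin genes, the receptors Ptger2 and Ptger3 fell by 2.44 ± 0.36 and 2.52 ± 0.21 at 4 h, whereas Ptgs1, a cyclooxygenase upstream of prostaglandins, rose by 1.45 ± 0.17 (adjusted p = 1.79e-08). Ptgs1 was lower in mESCs after RAD21 loss, at 0.791 ± 0.290 against 3.83 ± 0.424 CPM (n = 12, log2 fold change -2.18 ± 0.13, adjusted p = 3.80e-21).

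Ltbp1, which binds latent TGF-beta on microfibrils, was the 1 of 10 tested microfibril transcripts called at 4 h (62.3 ± 1.92 to 26.7 ± 0.615 CPM, log2 fold change -1.25 ± 0.063, edgeR adjusted p = 2.74e-16). Other copines (5 tested), the CCDC85 family (2), protein kinase C genes (8 transcripts), TNF receptors and adaptors (15 transcripts) and BTB-kelch genes (3) had 0 calls at 4 h. By an adjusted p under 0.05 alone, 1 of the copines was higher, 0 of the CCDC85 family moved, 4 protein kinase C transcripts were lower, 4 TNF receptor transcripts were lower and 3 higher, and 2 BTB-kelch genes were higher, where 21.1% of all tested transcripts were lower and 18.4% higher by the same rule. With called genes included, this rule gave 3 lower and 0 higher in the Kif26b list. It gave 3 lower and 2 higher in each of the LPA, prostaglandin and microfibril lists. After A-485, 7 of the 15 TNF receptor and adaptor transcripts were called lower (20.2% of all tested transcripts were), among them Fas (-2.17 ± 0.16) and Tnfrsf1a (-1.31 ± 0.066).

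Of 37 tested transcripts that start within 500 kb of the start of 1 of the 10 genes, edgeR called 0 lower and 1 higher after 4 h of IAA (2.75% and 0.817% of all tested transcripts were called), and their median log2 fold change was -0.08. At an adjusted p under 0.05 alone, 9 were lower and 5 higher (21.1% and 18.4% of all), the lowest being Slc12a2. The 1 called was Adgrf1, 254 kb downstream of the Tnfrsf21 start (1.73 ± 0.25, adjusted p = 1.08e-06), which had a mean of 24 counts in controls. The nearest tested neighbors of Cpne8 were Kif21a (-0.11 ± 0.060) and Alg10b (0.07 ± 0.055), those of Tnfrsf21 were Cd2ap (-0.02 ± 0.041) and Adgrf1, and those of Lpar1 were Olfr267 (-0.05 ± 0.27) and Svep1 (-0.40 ± 0.042). Slc12a2, 332 kb downstream of the Fbn2 start, had -0.61 ± 0.056 (adjusted p = 5.01e-10), under 2-fold. After A-485, 9 of the neighbors were called lower (20.2% of all tested transcripts were), among them Svep1 (-3.96 ± 0.087), Gcnt4 near Enc1 (-3.50 ± 0.080) and Adgrf5 near Tnfrsf21 (-3.22 ± 0.11), and 1, Zkscan16 near Lpar1, was called higher (1.63 ± 0.17).

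The genes whose 4 NPC log2 fold changes (1, 2 and 4 h of IAA and A-485) lay closest to the medians of the 10 (-0.30, -0.97, -1.72 and -3.60) were named by Euclidean distance among 9975 other expressed genes. They were St3gal1 (distance 0.245; -0.17, -1.08, -1.86 and -3.49), Abca9 (0.266; -0.38, -1.19, -1.77 and -3.48), Setbp1 (0.37), Zeb1 (0.393) and Cited2 (0.398). Their gene bodies ranged from 2.46 kb (Cited2) to 359 kb (Setbp1), so a short gene was among the closest. The 4 comparisons share their controls, and the likeness is a description.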

How the data were processed

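EU-seq reads of 60 libraries were trimmed with cutadapt and aligned by the authors to mm10 with BWA, filtered by mapping quality with SAMtools and counted with HTSeq over gene bodies, per the paper's methods and submitters' processing notes. The deposited values are raw counts in 62 columns. Columns for 1 h NPC treatments stop 90 kb from the start site, and both NPC controls were deposited in either form. A limit for 2 h data is described in the methods but is absent from those column names. It is not stated whether strand was used in counting.

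Names and positions came from GENCODE M21 (27455 of 27665 transcripts matched). In each of 11 comparisons, transcripts with a mean count above 20 in either group were tested with edgeR 4.0.16 (TMM, two-sided quasi-likelihood test, Benjamini-Hochberg, only the libraries compared, stranded or unstranded preparation as a covariate in CTCF-AID). Log2 fold changes were centered on the median of genes above 15 TPM, which for A-485 subtracted 0.12 and elsewhere at most 0.09 in size. Fits were tested on simulated data. CPM used TMM library sizes over all libraries of the same measure. Alternatives included DESeq2 1.42.0, other scaling and filters, blocks and leaving libraries out. The members and gene lists were chosen with earlier results of these data known: named are the 10 genes, called genes of the role lists, called or nearest neighbors within 500 kb, and the 5 nearest by pattern. The CTCF-AID fit had no replicate block. Deviations of same-numbered CTCF-AID libraries correlated at 0.489 (unstranded) and 0.811 (stranded), in the data and not from the labels, so values with a block are given beside it. Depth sets the precision of low values such as those of Hpgd, and errors given as SE cover the libraries compared.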

Additional observations from a re-analysis of the deposited data

Results flagged for a closer look

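Kif26b moved in opposite directions at 2 time points in NPCs: its log2 fold change was 0.60 at 1 h of IAA, with both libraries above both controls, and -2.07 at 4 h, with both libraries below; this difference was not tested, and the 2 values count different stretches of the gene.

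After 4 h of IAA, Prkca (0.81), Lpar1 (0.34), Kif26b (0.28) and Fbn2 (0.25) were higher than the control mean in all 12 mESC libraries and lower than it in both NPC libraries. Control levels in these mESC libraries were below those in NPCs by 72.5-fold for Fbn2, 12.2-fold for Prkca, 11.1-fold for Kif26b and 1.74-fold for Lpar1. The paper calls Fbn2 silent in mESCs. The mESC changes of Fbn2, Prkca and Kif26b thus start from low levels over gene bodies of 201.9 to 410.5 kb. These 4 differences between cell types were not tested.

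In groups of 4 CTCF-AID libraries, 3 of 20 gene and group combinations had a library far from the others, where chance flags about 1 in 20. They were Ccdc85a after IAA, with a highest value of 10.9 CPM, Kitl after IAA, with a highest value of 10.1 CPM, and Enc1 in controls, with a highest value of 94.2 CPM. All 3 were the second stranded library of their group.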

How the results depend on the processing

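The calls of all 10 genes after A-485 and of Hpgd in mESCs held under each alternative run, with other size factors, no filter, no centering, DESeq2 and a replicate block. Single libraries were left out for A-485 and the initial mESC experiment, where the calls also held. In the additional experiment, replicate 1 carries another batch label than the rest. There Hpgd held with the batch label as a block and in the batch of 11 replicates alone. The A-485 calls are not independent of how the genes were chosen. The median log2 fold change of the 10 genes in NPCs kept its direction under each alternative: without centering it was -0.27 at 1 h and -0.92 at 2 h, and with 1 library left out it ranged from -0.31 to -0.29 at 1 h, from -1.05 to -0.96 at 2 h and from -1.77 to -1.67 at 4 h. At 2 h, 6 of the 10 were called without treated replicate 1, against 4 with all libraries, and at 1 h 2 were called without control replicate 2, against 1. With an adjusted p under 0.05 alone in place of the call, 6 genes were lower and 4 higher in the additional mESC experiment, 4 and 1 in the initial one, 1 and 1 in CTCF-AID, 1 and 0 in CTCF YF-AA at 2 h, 2 and 1 at 4 h, and 1 and 1 in the ΔN/ΔC line. The replicate block gave 1 call lower in CTCF-AID. It changed no other count of the 10 genes called. With numbers crossed, it gave 36 lower and 62 higher calls over all transcripts at 1 h of IAA (30 and 63 without a block) and 34 and 40 in the initial mESC experiment (34 and 36); this pairing was added after seeing the data. Leaving out 1 library gave 0 to 1 genes called higher in CTCF-AID (1 without control stranded replicate 1 or treated stranded replicate 2) and in CTCF YF-AA at 4 h (1 without control replicate 1). With the initial mESC controls, the log2 difference of NPCs was 2.53 against 1.51 for Enc1 and 2.20 against 3.61 for Prkca, 1 gene was called lower in NPCs (Hpgd), and Lpar1 reversed to -0.01. By DESeq2 the adjusted p of Kif26b and Enc1 in CTCF YF-AA at 4 h was 0.0841 and 0.0819, and without control replicate 2 it was 0.241 and 0.0618; that of Prkca in the ΔN/ΔC line was 0.313 by DESeq2. In the initial mESC experiment, Kitl (0.524 without treated replicate 2), Lpar1 (0.419 without it, 0.362 without treated replicate 1, 0.172 with the block) and Enc1 (0.211 without treated replicate 1) lost an adjusted p under 0.05; the cause was not tested. Calls over all transcripts moved by over 1.5 times without a filter in the additional mESC experiment (200 lower and 428 higher against 92 and 41), and with DESeq2 at 1 h of IAA (5 and 39 against 30 and 63) and in the initial mESC experiment (15 and 7 against 34 and 36). With 1 library left out, lower calls at 1 h were 47 without control replicate 2 and 50 without treated replicate 2, and higher calls in the initial mESC experiment were 67 without control replicate 1, 20 without treated replicate 1 and 23 without treated replicate 2. They also moved at 2 h of IAA without treated replicate 1 (279 and 86 against 186 and 53) and by DESeq2 in the higher direction (31), in CTCF-AID with the block (191 and 320 against 139 and 88), DESeq2 (165 and 147) or 1 library left out (103 to 161 lower, 32 to 188 higher), in CTCF YF-AA by DESeq2 (64 and 4 against 93 and 21 at 2 h, 90 and 15 against 113 and 34 at 4 h), at 2 h there in the higher direction also with the block (11) and without control replicate 1 (13), in the ΔN/ΔC line by DESeq2 (62 and 11 against 87 and 24), and after A-485 in the higher direction (208 without centering and 202 without a filter, against 133). Few reads limit Hpgd throughout.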
